A study of Mus musculus with 9 samples.

Results

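The genes described here are 41 genes of the lysosome: 8 cathepsins, 14 other hydrolases and their activators, 8 membrane proteins and regulators, and 11 subunits of the vacuolar proton pump (V-ATPase), of which 5 belong to its membrane sector V0 and 6 to its cytosolic sector V1. They were taken by symbol from a list of lysosomal genes, with a normalized count of at least 10 in at least 3 of 9 libraries. All 41 passed this filter, as did 14404 of the 42454 genes in the table. The libraries were made from RNA of colon lamina propria macrophages, sorted as Ly6C low and MHC class II positive from 6-week-old mice of 3 genotypes: WT, p47phox-/- and gp91phox-/-, with 3 libraries each. The labels give no treatment, promoter, Cre or background strain for any group, so the groups differ by genotype as labelled. p47phox (gene Ncf1) is the cytosolic organiser and gp91phox (gene Cybb) the catalytic subunit of the phagocyte NADPH oxidase. The labels do not say how many animals stand behind a library.

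Lysosomes break down material that macrophages take up, and in the gut these cells continually clear dying epithelial cells and luminal material. The V-ATPase acidifies the organelle, with V1 hydrolysing ATP and V0 carrying protons across the membrane. Acid activates the cathepsins, which are proteases, and the glycosidases and lipid hydrolases that act beside them. Cathepsins also trim antigens and the invariant chain for MHC class II. The NADPH oxidase makes superoxide at the phagosome membrane, and the further reactions of superoxide consume protons inside the phagosome, so oxidase activity, pump activity and protease activity meet in the same compartment. TFEB is a transcription factor that drives many lysosomal genes.

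Reads recovered from the deposited values were 31141107 to 52797368 per library. In p47phox-/- replicates 2 and 3, 14323 and 14268 genes had a read, against 17754 in replicate 1 and 15825 to 18760 in the other 6 libraries, so called differences from p47phox-/- are also given without those 2 libraries for the 41 genes. That fit leaves 1 p47phox-/- library, which is assumed to vary like the other groups. Ncf1 was at 2718 to 3733 normalized counts in p47phox-/- and 8990 to 10815 in WT. All 1362 genes of chromosome X in the table were at 0 in every library, so Cybb could not be checked and X-linked lysosomal genes such as Lamp2 and Atp6ap2 are not analysed here. All 12 macrophage markers were above 0 in every library, with Csf1r at 82181 to 128474. Cx3cr1 was uneven, at 4060 to 5542 in WT, at 598, 5056 and 899 in p47phox-/-, and at 14745 to 24878 in gp91phox-/-. Of the 12 macrophage markers, 0 were called in p47phox-/- against WT. In gp91phox-/-, 1 was called higher against WT and 3 against p47phox-/-. Summed levels of 16 B and plasma cell markers were 38714 to 69654 in WT, 37029 to 46537 in p47phox-/- and 13615 to 15685 in gp91phox-/-, where 13 of 16 were called lower than in WT and Ms4a1, Pax5, Cr2 and Ly6d were at 0 in replicate 1. Summed levels of 14 fibroblast and smooth muscle markers were 7599 to 10192 in WT, 13011 to 20029 in p47phox-/- (3 of 14 called higher than in WT, none at 0) and 10732 to 12890 in gp91phox-/- (2 of 14 called higher than in WT). Summed levels of 10 conventional dendritic cell markers were 5781 to 9568, 7087 to 8958 and 3069 to 3981 in the same order of groups. Of these 10, 0 were called in p47phox-/- and 4 were called lower in gp91phox-/- against WT. The 6 endothelial markers summed to 2683.8 to 5752.5 in WT, 1346.2 to 2481.1 in p47phox-/- and 2179.2 to 2676.4 in gp91phox-/-. Against WT all 6 had log2 fold changes below 0 in both knockouts, with 1 called lower in p47phox-/- and 0 in gp91phox-/-. The part of these other cell types in the results that follow was not tested.

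The listed genes were a large part of the RNA of these macrophages. Together they took 4.41% ± 0.34 of all reads in WT, 4.11% ± 0.23 in p47phox-/- and 4.14% ± 0.26 in gp91phox-/- (mean ± SD over 3 libraries, as in what follows). Psap, the precursor of the saposins that present lipids to lysosomal hydrolases, alone took 1.15% ± 0.11, 0.874% ± 0.066 and 0.819% ± 0.077. The cathepsins took 1.64% ± 0.14 in WT, 1.65% ± 0.11 in p47phox-/- and 1.71% ± 0.11 in gp91phox-/-, so their total differed by less than the SD between libraries. The V-ATPase subunits were a far smaller part, with V0 at 0.115% ± 0.0042 and V1 at 0.121% ± 0.0050 of reads in WT. In p47phox-/- and gp91phox-/- V0 took 0.134% ± 0.0092 and 0.123% ± 0.0036, and V1 0.144% ± 0.015 and 0.132% ± 0.0083. The other hydrolases and activators took 2.03% ± 0.18 in WT, 1.698% ± 0.12 in p47phox-/- and 1.705% ± 0.13 in gp91phox-/-. The membrane proteins and regulators took 0.501% ± 0.022, 0.485% ± 0.027 and 0.465% ± 0.027. Differences between these shares were not tested. Without immunoglobulin segments and B and plasma cell markers in the total, the share of the 41 genes was 4.45%, 4.14% and 4.14%.

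Levels can be compared between genes only per length, so normalized counts were divided by the length of the principal transcript in kb. On this per-kb scale Psap was first in all 3 genotypes, with 128315 ± 18038 for WT (n = 3), 98550 ± 9664 for p47phox-/- and 94876 ± 10205 for gp91phox-/-. In WT it was followed by Ctss, the cathepsin S that trims the invariant chain, at 49854 ± 7172 per kb. Lgmn, the asparaginyl endopeptidase that matures cathepsins, had 47010 ± 4211 per kb. Ctsb, Ctsz, Ctsd and Ctsc came next, with 39736 ± 5189 per kb for Ctsb and 23864 ± 3662 per kb for Ctsc. Some neighbours in this part of the order were closer than their spreads, since Ctss and Lgmn overlapped within 1 SD, as did Ctsd and Ctsc. Ctsz overlapped neither Ctsb nor Ctsd within 1 SD. The order of the first 4 genes was the same in each genotype, whereas Ctsc was at rank 7 in WT and p47phox-/- and at rank 5 in gp91phox-/-, above Ctsz.

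Among the pump subunits, WT levels per kb ran from 12618 ± 1341 for Atp6v0c, the proteolipid that forms the rotating ring, to 68.3 ± 16.7 for Atp6v0d2, an alternative stalk subunit best known from osteoclasts. Its paralog Atp6v0d1 lay between them. Atp6v0d2 was last of the 41 genes in every genotype. Smpd1, the acid sphingomyelinase, and Tfeb were next to last, with 249.9 ± 35.0 and 473.9 ± 30.4 per kb in WT. The genes thus spanned over 3 orders of magnitude on the per-kb scale, while the coefficient of variation between libraries of a genotype had a median of 10.8% in WT, 9.81% in p47phox-/- and 8.62% in gp91phox-/-.

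**Figure D1:**
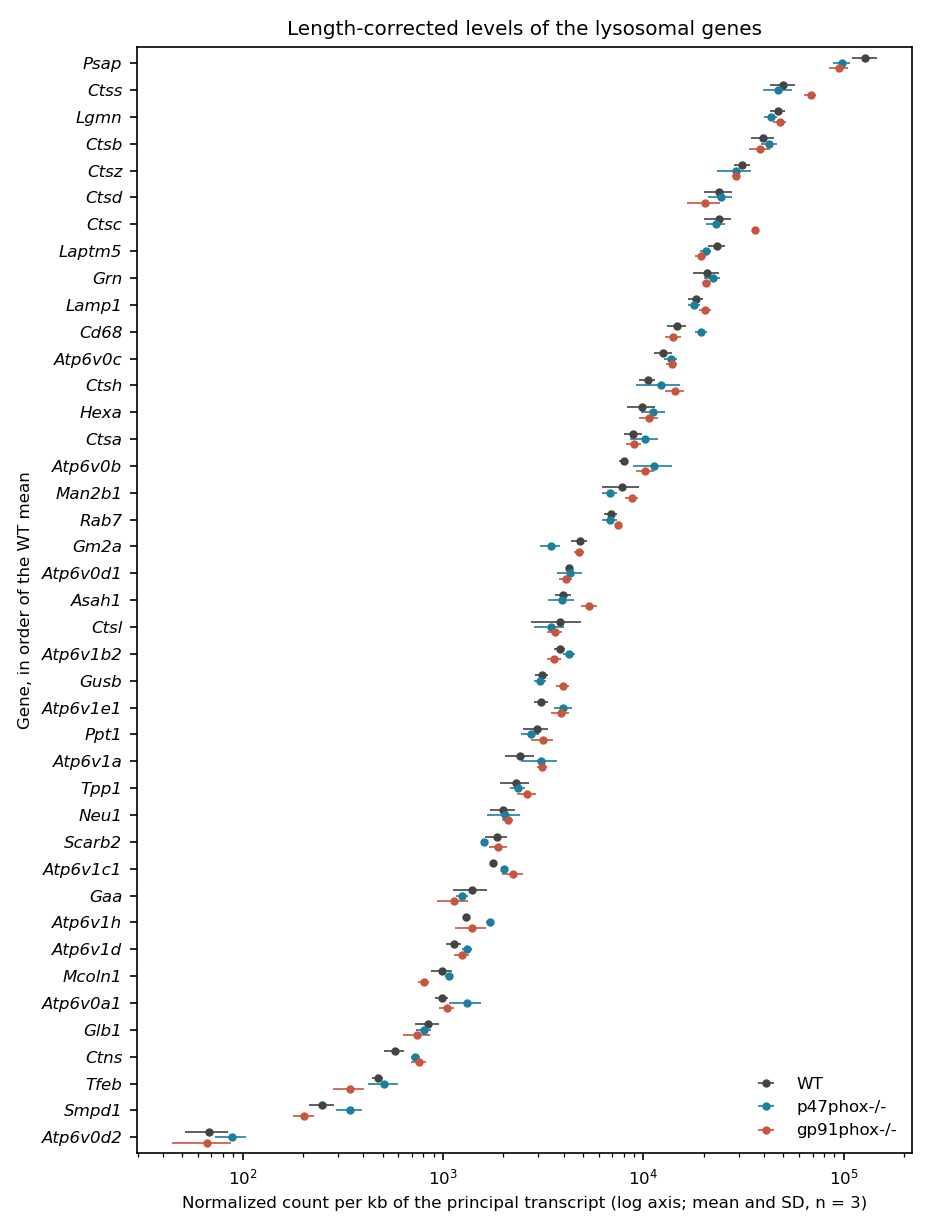
Normalized count per kb of the principal transcript (log axis) for the 41 lysosomal genes in order of the WT mean, with points for the genotype mean and bars for the SD over 3 libraries. Psap is at the top in all genotypes, Atp6v0d2 at the bottom, and Ctsc of gp91phox-/- lies to the right of the other genotypes.

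Promoter sequences are shown for the 4 genes that passed a test below and for 2 pump and membrane genes that carry the letters bound by TFEB and its relatives. These factors recognise CACGTG, best within a longer palindrome. CACGTG is its own reverse complement, so each match is on both strands. RefSeq sequences (GRCm38.p6) of the 250 bases before the start were at hand for 34 of the 41 genes. CACGTG was present before 10 of these 34 (29.4%), against 9.68% of 10932 tested genes and 6.86% of 27025 genes with a window of the same length. Per window it was in 23.3% of 43 windows of the listed genes and in 6.02% of all 32851. The 10 genes were Ctsa, Ctsd, Ctsl, Glb1, Gaa, Lgmn, Lamp1, Mcoln1, Atp6v0b and Atp6v1a. A gene was counted if the window before any of its RefSeq starts held a copy. For Ctsa, Ctsl, Lgmn and Atp6v1a the window with the copy lies inside the annotated gene, before an internal start. The outer windows of Ctsa and Lgmn held no copy. TCACGTGA, which contains CACGTG, was before 4 of 34 genes (11.8%), against 1.67% of tested genes. These were Ctsa, Ctsd, Mcoln1 and Atp6v1a, and in each the TCACGTGA lies inside the annotated gene. In Ctsd and Mcoln1 it is the copy nearer the RefSeq start, and the other CACGTG lies before the annotated gene. With a further G before TCACGTGA and C after it, the full palindrome was before 0 of 34 genes, against 0.54% of tested genes. These matches are a description of letters and not of binding. The bases just before the RefSeq start are printed 5′ to 3′ on the gene's strand, with CACGTG in capitals. For Atp6v0b, 4 bases next to the start were left out because they lie in an annotated exon.
Lamp1 (chr8:13159041-13159160, plus strand): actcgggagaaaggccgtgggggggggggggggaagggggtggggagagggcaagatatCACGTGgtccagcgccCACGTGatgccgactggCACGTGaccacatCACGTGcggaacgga
Atp6v0b (chr4:117887334-117887449, minus strand): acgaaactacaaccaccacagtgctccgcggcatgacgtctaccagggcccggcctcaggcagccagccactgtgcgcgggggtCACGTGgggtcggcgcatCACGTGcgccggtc
Ctsc (chr7:88277965-88278084, plus strand): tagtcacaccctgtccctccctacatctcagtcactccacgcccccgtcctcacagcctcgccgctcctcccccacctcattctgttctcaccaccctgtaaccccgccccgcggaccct
Smpd1 (chr7:105554240-105554359, plus strand): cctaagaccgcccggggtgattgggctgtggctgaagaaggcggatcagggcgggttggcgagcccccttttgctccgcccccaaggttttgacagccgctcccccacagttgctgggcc
Gm2a (chr11:55097865-55097984, plus strand): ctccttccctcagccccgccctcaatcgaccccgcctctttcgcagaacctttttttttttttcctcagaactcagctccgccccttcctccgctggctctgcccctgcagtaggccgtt
Cd68 (chr11:69666171-69666290, minus strand): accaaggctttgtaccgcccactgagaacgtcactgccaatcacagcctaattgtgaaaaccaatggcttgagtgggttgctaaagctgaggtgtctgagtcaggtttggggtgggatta
Lamp1, the main glycoprotein of the lysosomal membrane, held 4 copies in these 120 bases and Atp6v0b 2 copies in 116. No copy was found in the printed stretches, or in the full 250 bases, of Ctsc, Smpd1, Gm2a and Cd68. Neither Lamp1 nor Atp6v0b was called in any comparison.

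Genotypes were compared gene by gene on log2(normalized count + 1) with limma across all 14404 genes, and a gene was called at a Benjamini-Hochberg adjusted p under 0.05 over all of them. In p47phox-/- against WT, 0 of 41 lysosomal genes were called, where 1.12% of all genes tested were called, 0.625% higher and 0.5% lower. At an unadjusted p under 0.05 there were 8 (of all 14404 genes 2164). On recovered reads edgeR called 0 (all genes 0.923%) and DESeq2 called 1, Gm2a, lower (all genes 4.71%). In gp91phox-/- against WT, only Ctsc was called, as higher (1 of 41, 2.44%, against 7.05% of all genes, 2.53% higher and 4.53% lower). At an unadjusted p under 0.05 there were 12 genes (29.3%, all genes 21.7%). DESeq2 called 7 of 41, 6 higher and 1 lower (all genes 12.2%), and edgeR 1 of 41 (all genes 6.76%). Between the knockouts 4 of 41 (9.76%) were called, near the 9.93% of all genes (3.97% higher and 5.96% lower): Ctsc and Gm2a were higher and Smpd1 and Cd68 lower in gp91phox-/- than in p47phox-/-. There edgeR called 4 of 41 (all genes 9.13%) and DESeq2 9 of 41, 5 higher and 4 lower (all genes 15.8%). The lysosomal genes were thus called by limma at or below the rate of all genes in each comparison. By DESeq2 they were called above its rate over all genes in gp91phox-/- against WT and between the knockouts, and below it in p47phox-/- against WT. By edgeR they were called below its rate over all genes in both comparisons with WT, and slightly above it between the knockouts. Since these are bulk samples, fewer cells of a type and less RNA per cell cannot be told apart.

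The differences from WT were small. Log2 fold changes ran from -0.48 to 0.49 in p47phox-/- against WT (median 0.04, all genes -0.02) and from -0.48 to 0.60 in gp91phox-/- against WT (median 0.08, all genes 0.01). Standard errors were 0.12 to 0.30, with a median of 0.15. The 95% interval lay within a log2 change of 1 in either direction for 40 of 41 genes in p47phox-/- (all but Atp6v0d2) and for 41 of 41 in gp91phox-/-. Between the knockouts, log2 fold changes ran from -0.75 to 0.65 (median -0.05, all genes 0.02). There 38 of 41 intervals lay within a log2 change of 1 (all but Ctsc, Smpd1 and Atp6v0d2). In p47phox-/- against WT the libraries did not overlap for 11 of 41 genes (26.8%, all genes 17.7%), 9 higher (all genes 9.25%) and 2 lower (all genes 8.49%). In gp91phox-/- against WT this held for 14 of 41 (34.1%, all genes 33.3%), 10 higher (all genes 15.1%) and 4 lower (all genes 18.2%). Between the knockouts it held for 13 of 41 (31.7%, all genes 30.9%), 7 higher (all genes 13.6%) and 6 lower (all genes 17.3%). The comparisons with WT share the WT libraries, so their values are set side by side and no agreement is read from them.

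**Figure D2:**
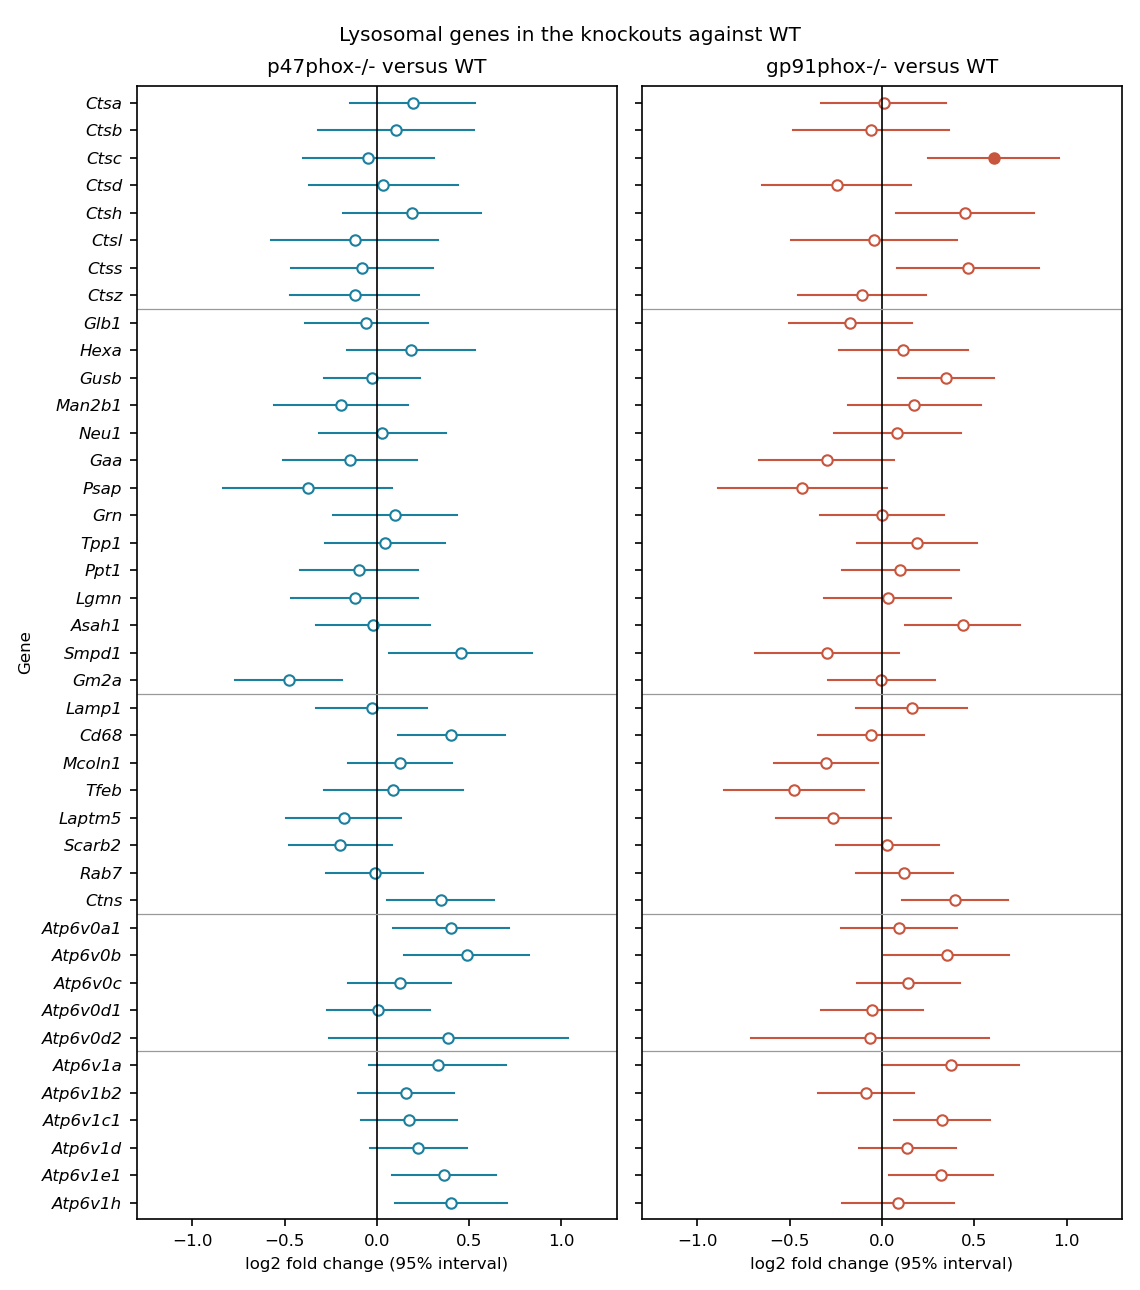
Log2 fold change of each lysosomal gene in p47phox-/- (left) and gp91phox-/- (right) against WT, with 95% intervals from limma; filled points were called at an adjusted p under 0.05 over all genes and grey lines part the role groups. Ctsc in gp91phox-/- is the filled point, and all 11 pump subunits at the bottom of the left panel lie at or to the right of 0.

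Of the cathepsins, only Ctsc was called in gp91phox-/-. Ctsc (GRCm38 chromosome 7, 88278085 to 88310888, plus strand, protein-coding) encodes cathepsin C, the dipeptidyl peptidase that activates granule serine proteases. Its normalized counts were 60242, 50013 and 68227 in WT, 61744, 50300 and 59977 in p47phox-/-, and 87810, 91795 and 89671 in gp91phox-/-. All 3 gp91phox-/- libraries were above all 6 others, while WT and p47phox-/- overlapped. Ctsc rose 1.52-fold in gp91phox-/- against WT (log2 fold change 0.60, SE 0.16, 95% interval 0.25 to 0.96, adjusted p = 0.0443) and was 1.57-fold higher than in p47phox-/- (log2 fold change 0.65, adjusted p = 0.0258). The latter call was lost in 8 of 23 alternatives, among them those without each gp91phox-/- library in turn, without p47phox-/- replicate 2 or 3, and without both (log2 fold change 0.54, adjusted p = 0.257). In p47phox-/- against WT its log2 fold change was -0.05 (95% interval -0.40 to 0.31, adjusted p = 0.919). The call against WT was lost in 12 of 23 alternatives, among them those without each WT or gp91phox-/- library in turn and without p47phox-/- replicate 1 or 3. Over all 23 alternatives its adjusted p was 0.000623 to 0.152 and its log2 fold change 0.41 to 0.71. No other annotated exon overlaps those of Ctsc.

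The papain-like cathepsins of antigen processing, Ctss and Ctsh, had values in the same direction without being called. Against WT, Ctss was called in 2 of 23 alternatives and Ctsh in 2. Against p47phox-/-, Ctss was called in 5. DESeq2 called Ctss in both comparisons. Ctss was at 56360 to 73851 in WT, 53960 to 75171 in p47phox-/- and 86050 to 98714 in gp91phox-/-, where it overlapped neither other group (log2 fold change 0.46, adjusted p = 0.146 against WT, and 0.54, adjusted p = 0.0730 against p47phox-/-). Ctsh, an aminopeptidase, was at 15228 to 17978 in WT and 20304 to 25135 in gp91phox-/- (log2 fold change 0.45, adjusted p = 0.147), but p47phox-/- replicate 2 reached 25174. The endopeptidases Ctsb, Ctsl and Ctsd, and the carboxypeptidase Ctsz, overlapped between WT and both knockouts. Ctsl shares 26.8% of its exon bases with an antisense gene, and its reads are uncertain. Ctsb, of whose exon bases 12.8% are antisense to Fdft1, was at 188470 ± 24610 in WT, 201852 ± 17499 in p47phox-/- and 180901 ± 21602 in gp91phox-/-. Ctsd, the aspartic protease of the group, was at 50931 ± 8175, 52094 ± 7115 and 43159 ± 8165, but 34.4% of its exon bases are shared with an annotated gene on the same strand, Gm49369, so its reads are uncertain. Ctsa, a serine carboxypeptidase that also protects neuraminidase and beta-galactosidase, had the largest cathepsin value in p47phox-/- against WT. It was at 35845, 28992 and 32783 in WT and 31874, 43753 and 36510 in p47phox-/- (log2 fold change 0.19, adjusted p = 0.588). The groups overlapped, and 10.5% of the exon bases of Ctsa are antisense to Pltp.

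**Figure D3:**
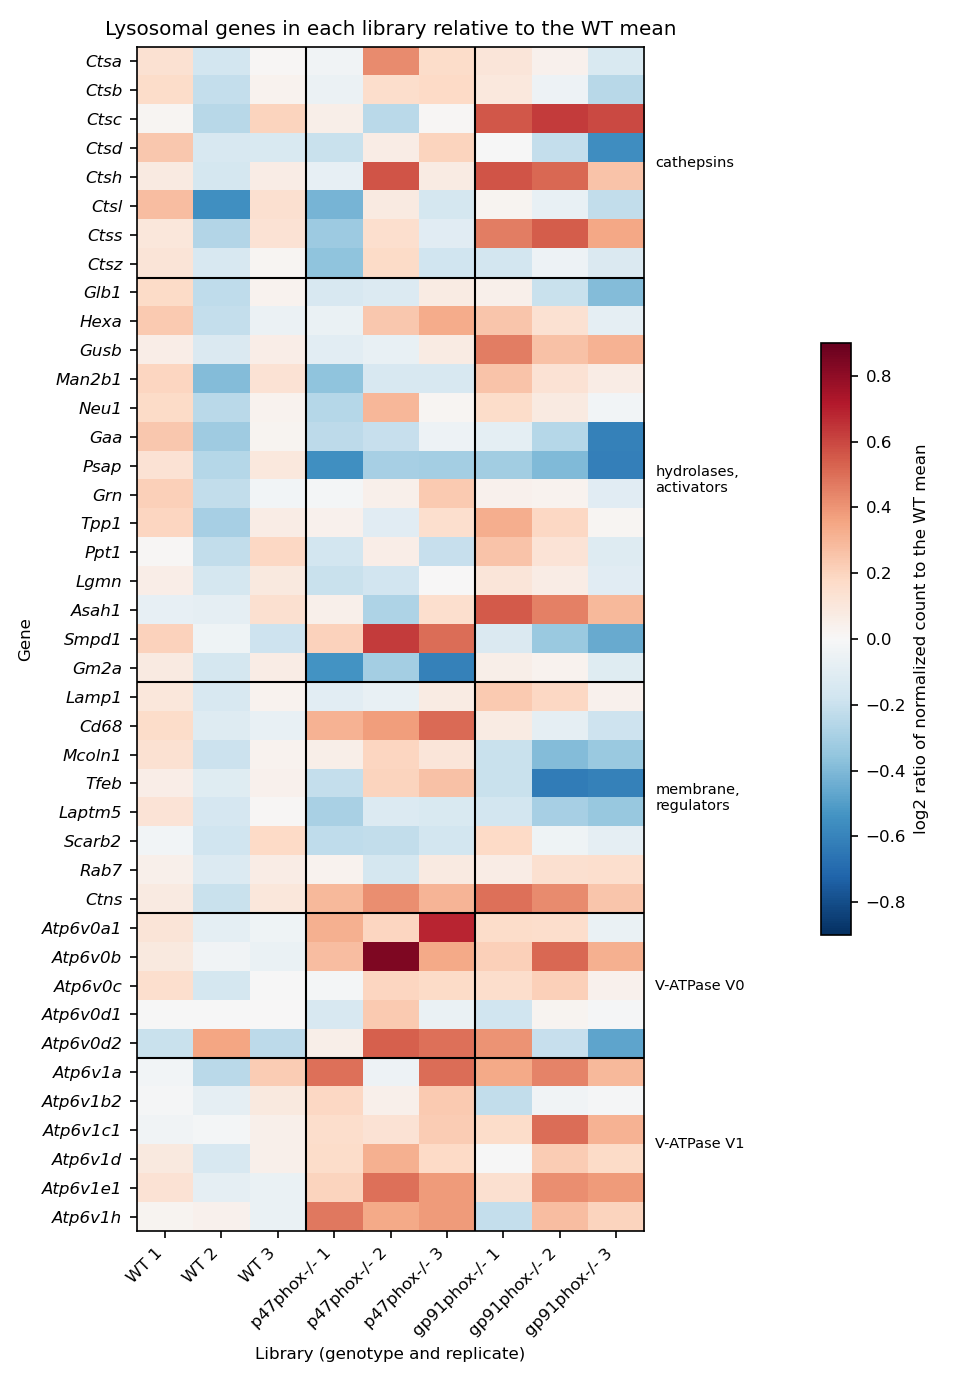
Log2 ratio of each library's normalized count to the WT mean for the 41 genes (rows, by role group) in 9 libraries (columns), with red above and blue below the WT mean. Ctsc is red in all 3 gp91phox-/- libraries, Gm2a blue in all 3 p47phox-/- libraries, and WT replicate 2 is mostly blue.

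Among the lipid hydrolases and their activators, Smpd1 and Gm2a separated the knockouts from each other, in opposite directions. Smpd1 (chromosome 7, 105554360 to 105558389, plus strand) cleaves sphingomyelin to ceramide. It was at 694.4, 585.2 and 528.5 in WT, 695.0, 931.1 and 855.5 in p47phox-/-, and 550.5, 477.3 and 439.2 in gp91phox-/-. The knockouts did not overlap, and p47phox-/- replicate 1 was within 1 count of WT replicate 1. Smpd1 was 1.69-fold lower in gp91phox-/- than in p47phox-/- (log2 fold change -0.75, SE 0.18, 95% interval -1.14 to -0.36, adjusted p = 0.0205). Against WT the log2 fold changes were 0.45 in p47phox-/- (adjusted p = 0.258) and -0.30 in gp91phox-/- (adjusted p = 0.376). The call was lost without p47phox-/- replicate 3, or gp91phox-/- replicate 2 or 3, and without p47phox-/- replicates 2 and 3 together the log2 fold change was -0.51 (adjusted p = 0.289).

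Gm2a (chromosome 11, 55098115 to 55113029, plus strand) encodes the activator that lifts the GM2 ganglioside to hexosaminidase. Its values were 21014, 17749 and 20775 in WT, 13668, 16073 and 13047 in p47phox-/-, and 20628, 20263 and 18412 in gp91phox-/-. All p47phox-/- libraries were below all others, and WT and gp91phox-/- overlapped. Gm2a was 1.39-fold higher in gp91phox-/- than in p47phox-/- (log2 fold change 0.47, SE 0.13, 95% interval 0.19 to 0.76, adjusted p = 0.0410), and p47phox-/- against WT gave -0.48 (adjusted p = 0.111). DESeq2 called the latter (adjusted p = 0.00637). Without p47phox-/- replicates 2 and 3 together the values were 0.53 (adjusted p = 0.152) and -0.53 (adjusted p = 0.383), and neither was called. Gm2a against gp91phox-/- lost its call in 12 of 23 alternatives. Hexa, the alpha subunit of hexosaminidase that works with Gm2a, was at 19785 ± 3169 in WT, 22451 ± 3089 in p47phox-/- and 21334 ± 2428 in gp91phox-/-, with overlapping libraries. Its exons overlap those of Tmem202 on the other strand by 12.8%, so its reads are uncertain.

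Asah1, the acid ceramidase that follows sphingomyelinase, had the greatest value of the 14 hydrolases in gp91phox-/- against WT. It was at 10472, 10436 and 12199 in WT, 11381, 9114 and 12265 in p47phox-/-, and 16141, 15150 and 13504 in gp91phox-/-. The gp91phox-/- libraries were above all others, but Asah1 was not called (log2 fold change 0.44, 95% interval 0.13 to 0.75, adjusted p = 0.0914, and 0.46, adjusted p = 0.0628 against p47phox-/-). Gusb, beta-glucuronidase, had the same order, with 8394 ± 635 in WT, 8236 ± 543 in p47phox-/- and 10684 ± 775 in gp91phox-/- (log2 fold change 0.35, adjusted p = 0.107). Psap was lower than every WT library in all 6 knockout libraries, which ran from 222089 to 277057 against 285822 to 372860 in WT. Its log2 fold changes of -0.38 (adjusted p = 0.423) and -0.43 (adjusted p = 0.264) were not called, and the 95% intervals of -0.84 to 0.08 and -0.89 to 0.03 include 0. The glycosidases Glb1, Man2b1, Neu1 and Gaa, the proteases Tpp1 and Lgmn, the thioesterase Ppt1 and progranulin (Grn) overlapped between WT and each knockout. Grn gave log2 fold changes of 0.10 and 0.00 against WT.

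Of the membrane proteins and regulators, Cd68 was higher in p47phox-/- than in gp91phox-/-. Cd68 (chromosome 11, 69664213 to 69666153, minus strand) is a heavily glycosylated late endosomal protein used as a macrophage marker. It was at 20394, 16762 and 17294 in WT, 22513, 23573 and 25809 in p47phox-/-, and 19102, 17144 and 15938 in gp91phox-/-. All p47phox-/- libraries were above the other 6. The difference between the knockouts was called (log2 fold change -0.46 in gp91phox-/- against p47phox-/-, 95% interval -0.75 to -0.17, adjusted p = 0.0462), and p47phox-/- against WT was not (0.40, adjusted p = 0.173). The call was lost in 16 of 23 alternatives, and without p47phox-/- replicates 2 and 3 together the log2 fold change was -0.38 (adjusted p = 0.334).

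Tfeb (chromosome 17, 47737030 to 47792419) was at 1137, 1008 and 1119 in WT, 940.0, 1252 and 1310 in p47phox-/-, and 946.3, 704.1 and 712.9 in gp91phox-/-. The gp91phox-/- libraries were below all WT libraries, and gp91phox-/- replicate 1 was above the lowest p47phox-/- library. Tfeb did not pass the test against WT (log2 difference -0.48, 95% interval -0.85 to -0.10, adjusted p = 0.128) or p47phox-/- (-0.57, adjusted p = 0.0594). Mcoln1, the lysosomal calcium channel whose calcium release activates TFEB, was at 2048 ± 238 in WT, 2225 ± 106 in p47phox-/- and 1656 ± 112 in gp91phox-/- (log2 fold change -0.30 against WT, adjusted p = 0.197, and -0.43 against p47phox-/-, adjusted p = 0.0570). Ctns, the cystine exporter, was above WT in all 6 knockout libraries, with 1568 ± 178 in WT, 1985 ± 98.3 in p47phox-/- and 2059 ± 174 in gp91phox-/- (log2 fold changes 0.35 and 0.40, adjusted p = 0.242 and 0.0994). Lamp1, Scarb2, which is the receptor that carries glucocerebrosidase to lysosomes, and the GTPase Rab7 overlapped between WT and each knockout. Laptm5, a lysosomal membrane protein of blood cells, was at 54635 to 65929 in WT and 47890 to 54044 in gp91phox-/- (log2 fold change -0.26, adjusted p = 0.320).

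**Figure D4:**
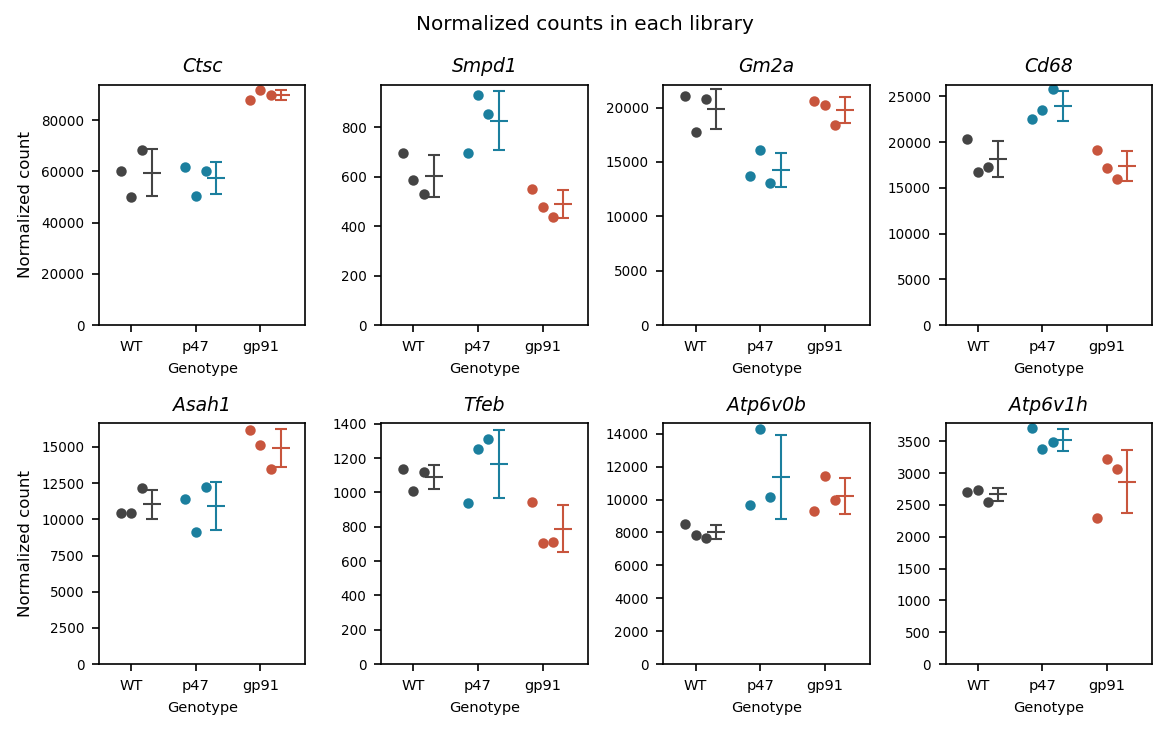
Normalized counts in each library (points) with the mean and SD (n = 3) beside them, for 8 lysosomal genes in WT, p47phox-/- (p47) and gp91phox-/- (gp91); each axis starts at 0. Ctsc and Asah1 are high in gp91phox-/-, Gm2a is low and Cd68 high in p47phox-/-, and the knockout means lie on opposite sides of the WT mean for Smpd1.

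The 11 listed proton pump subunits had small differences of the same sign in p47phox-/-. All 11 had log2 fold changes above 0 against WT (0.01 to 0.49, median 0.33), where 6820 of 14404 genes did, and 0 of 11 were called. Atp6v0d1 was below 0 with TMM, median-of-ratios and quantile scaling, array weights, edgeR, DESeq2 and without p47phox-/- replicate 2. Without p47phox-/- replicates 2 and 3 together, Atp6v0d1 and Atp6v0c were below 0 and the median was 0.19. Of 7 further pump subunits tested, 4 were above 0 and 3 below it (Atp6v0a2, Atp6v0e2 and Tcirg1, named here after their values were seen), with log2 fold changes of -0.47 to 0.74 and 0 called. In gp91phox-/- against WT, 8 of the 11 were above 0, where 7290 of 14404 genes were, with a median of 0.14 and 0 called.

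Of V0, the membrane sector, Atp6v0b had the largest difference in both knockouts against WT. This proteolipid subunit was at 8485, 7824 and 7692 in WT, 9692, 14287 and 10136 in p47phox-/-, and 9293, 11423 and 9995 in gp91phox-/-. All knockout libraries were above all WT libraries, and p47phox-/- replicate 2 was the highest of the 9. The log2 fold changes were 0.49 in p47phox-/- (95% interval 0.15 to 0.82, adjusted p = 0.161) and 0.35 in gp91phox-/- (95% interval 0.01 to 0.69, adjusted p = 0.212). Atp6v0a1, a subunit of the proton channel, was at 3714 to 4287 in WT, 4522 to 6340 in p47phox-/- and 3791 to 4429 in gp91phox-/-. Atp6v0d1 was within 6938 to 6962 in the WT libraries and 6287 to 8174 in p47phox-/-.

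Of V1, the ATP-hydrolysing sector, Atp6v1h had the largest difference in p47phox-/- and Atp6v1a in gp91phox-/-. Atp6v1h, a regulatory subunit that couples the sectors, was at 2708, 2740 and 2553 in WT, 3710, 3374 and 3484 in p47phox-/-, and 2297, 3229 and 3063 in gp91phox-/-. WT and p47phox-/- did not overlap (log2 fold change 0.40, 95% interval 0.10 to 0.70, adjusted p = 0.199), and gp91phox-/- spread to both sides of WT. Atp6v1a, the catalytic subunit, was at 10136, 8718 and 12094 in WT, 14552, 9973 and 14648 in p47phox-/-, and 13081, 14070 and 12600 in gp91phox-/-. The gp91phox-/- libraries were above all WT libraries (log2 fold change 0.37, adjusted p = 0.228), whereas p47phox-/- replicate 2 was among the WT values (0.33, adjusted p = 0.383). Atp6v1e1, a stalk subunit, was above all WT libraries in all 6 knockout libraries (4062 ± 340 in WT, 5234 ± 527 in p47phox-/- and 5070 ± 505 in gp91phox-/-).

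Libraries of a genotype moved many lysosomal genes together. WT replicate 2 was the lowest WT library for 35 of 41 genes (85.4%), against 33.7% of all genes, with a median log2 deviation of -0.15 from the WT mean. It was also the WT library with the highest B and plasma cell marker sum, and the 12 macrophage markers had a median log2 deviation of -0.24 in it. In p47phox-/-, replicate 1 was lowest for 30 of 41 genes (73.2%, all genes 29.0%), with macrophage markers at a median deviation of -0.28. In gp91phox-/-, replicate 1 was highest for 28 of 41 (68.3%, all genes 38.4%), including all 14 hydrolases, but was lowest for 5 of 6 V1 subunits. Replicate 3 of gp91phox-/- was lowest for 28 of 41 (68.3%, all genes 31.8%), with macrophage markers at a median deviation of -0.20. The part of the share of macrophages in these shifts was not tested. These shared shifts are part of the spread against which each gene was tested, and the 41 genes are therefore not independent replicates of a genotype effect.

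Other lysosomal genes, 122 of a further list of 139 that passed the filter, included genes with larger fold changes. In gp91phox-/- against WT, 8 of 122 were called (6.56%, all genes 7.05%), 4 higher and 4 lower. Tfec, a relative of TFEB found in macrophages, was at 265.6 ± 57.8 in WT and rose to 682.8 ± 95.9, a log2 fold change of 1.37 (adjusted p = 0.00186). Hgsnat, the membrane acetyltransferase of heparan sulfate breakdown, was at 3150 ± 81.8 and rose to 5514 ± 470, a log2 fold change of 0.80 (adjusted p = 0.00742). Lamtor3, of the Ragulator complex that docks mTORC1 on lysosomes, and Stx7, an endosomal fusion SNARE, rose as well (log2 fold changes 0.59 and 0.52, adjusted p = 0.0170 and 0.0341). Plekhm1, an adaptor for lysosome fusion that binds Rab7, was at 2727 ± 126 in WT and 1320 ± 121 in gp91phox-/-, a log2 fold change of -1.05 (adjusted p = 0.000223). Gpnmb, a lysosomal glycoprotein, dropped to 2591 ± 684 from 8332 ± 1788, a log2 fold change of -1.70 (adjusted p = 0.00031). Tfec, Lamtor3 and Plekhm1 also lay apart from WT in p47phox-/-, in the same direction but uncalled. Tfec was at 421.1 to 523.7 there (WT 205.6 to 320.9), Lamtor3 at 2578 to 3089 (WT 1985 to 2389) and Plekhm1 at 2283 to 2388 (WT 2590 to 2838). Hgsnat and Stx7 overlapped between p47phox-/- and WT.

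Ctse, an endosomal aspartic protease, was at 179.8, 208.5 and 142.6 in WT, 110.8, 156.5 and 130.5 in p47phox-/-, and 63.7, 28.4 and 52.8 in gp91phox-/-, and fell in gp91phox-/- against WT (log2 fold change -1.91, adjusted p = 0.00652). Igf2r, the large mannose 6-phosphate receptor that delivers hydrolases to endosomes, was also lower, at 276.2 ± 155 against 828.4 ± 189 (log2 fold change -1.70, adjusted p = 0.0124). The B and plasma cell and dendritic cell marker sums were lower in the same 3 libraries, as given above, and their part in these differences was not tested. The calls of Ctse, Hgsnat, Gpnmb, Tfec and Plekhm1 held in all 23 alternatives, and those of Igf2r, Lamtor3 and Stx7 were lost in 4, 5 and 8.

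In p47phox-/- against WT, 2 of 122 were called (1.64%, all genes 1.12%). Cst3, the secreted cysteine protease inhibitor cystatin C, was at 15780 ± 1856 in WT and rose to 28577 ± 7380, a log2 fold change of 0.83 (adjusted p = 0.04995), and this was lost in 18 of 23 alternatives. Gpnmb was down at 3568 ± 268, a log2 fold change of -1.20 (adjusted p = 0.0155), lost in 6 alternatives. Without p47phox-/- replicates 2 and 3 together neither was called (log2 fold changes 0.45 and -1.12, adjusted p = 0.525 and 0.285). Fibroblast markers were higher in p47phox-/-, as given above, and their part in the value of Cst3 was not tested.

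Between the knockouts, 13 of 122 were called (10.7%, all genes 9.93%), 4 higher and 9 lower in gp91phox-/-. The 10 with the greatest change were Igf2r (log2 fold change -1.55), Ctse (-1.50), the hyaluronidase Hyal1 (-1.26), Plekhm1 (-0.83), the folliculin partner Fnip2 (-0.81), the hyaluronidase Hyal2 (-0.80), the endolysosomal channel Tpcn1 (-0.72), Ostm1, the partner of the chloride transporter ClC-7 (0.68), Mfsd12, a lysosomal cysteine importer (-0.63), and Plbd2, a phospholipase B-like protein (-0.62). Plekhm1 held its call in all 23 alternatives. Without p47phox-/- replicates 2 and 3 together, 12 of these 13 calls were lost, Plekhm1 being the exception (log2 fold change -0.86), and 2 of 122 genes were called, against 3.06% of all genes. Hyal1 shares 50.8% of its exon bases with Naa80 on the same strand and Mfsd12 29.7% with an antisense gene, so their reads are uncertain.

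**Figure D5:**
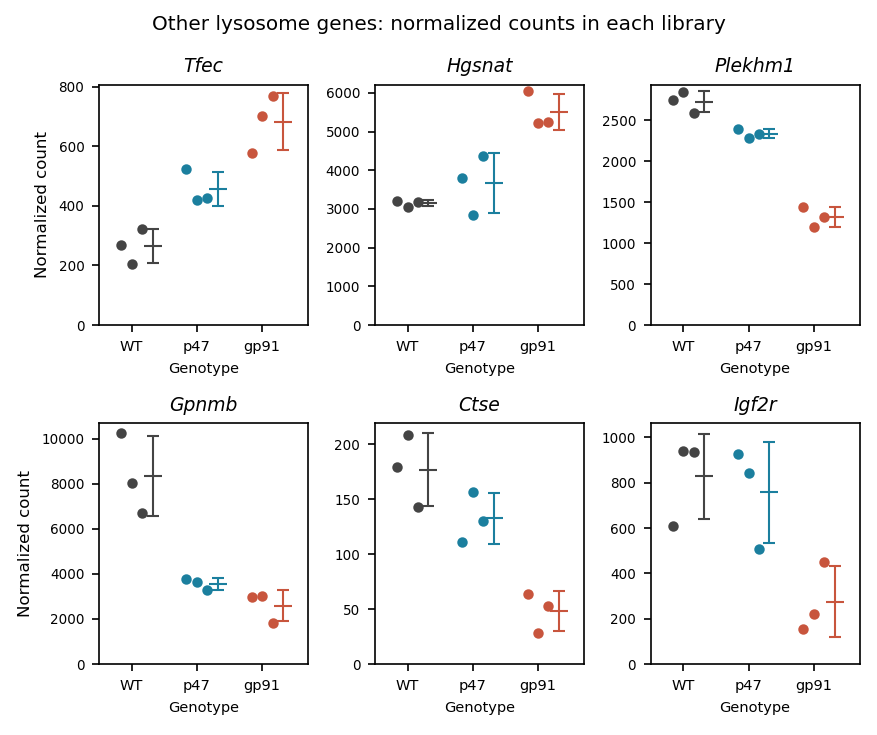
Normalized counts in each library (points) with the mean and SD (n = 3) beside them, for 6 further lysosomal genes called in gp91phox-/- against WT, in WT, p47phox-/- (p47) and gp91phox-/- (gp91); each axis starts at 0. Tfec and Hgsnat are highest in gp91phox-/-, while Plekhm1, Gpnmb, Ctse and Igf2r are lowest there, with Gpnmb low in p47phox-/- as well.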

How the data were processed

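RNA sequencing of 9 libraries, 3 per genotype, was analysed. Per the labels' protocols and the submitters' processing notes, reads were demultiplexed with bcl2fastq 2.19, trimmed with Cutadapt, aligned to mm10 with STAR 2.5.2b and counted per gene with featureCounts; DESeq2 is named as well. What was deposited is a signal: counts that the authors divided by a size factor per library. Whole reads were recovered from 100% of values (tolerance 0.01), 31141107 to 52797368 per library. The annotation and strand setting are not given in the sources used here.

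Values were tested as log2(normalized count + 1) with limma 3.58.1 (R 4.3.3, mean-variance trend, 1 fit of 3 genotypes) in the 14404 genes that reached 10 normalized counts in 3 or more libraries, adjusted by Benjamini-Hochberg over all of them. The fold changes are on this scale. Animals per library are not stated, so a p-value reflects variation among these libraries, which could be technical. The 41 genes, the further list of 139, the marker lists and the alternatives were chosen with earlier results of these data known. Per-library values are given for called genes and, in each role group, for the gene with the greatest change in each knockout against WT; of the further list at most 10 called genes per comparison are named by size of change. Genes outside this rule are given by ranges or means. Coordinates and exon overlaps are from GENCODE vM21 (GRCm38), and per-kb levels use its longest principal transcript. The recovered reads were also tested with edgeR 4.0.16 and DESeq2 1.42.0. The fit was checked on simulated data with changes larger than those of the 41 genes, so that check does not show what could be detected at their size. Leaving out p47phox-/- replicates 2 and 3 together was chosen after seeing the data.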

Additional observations from a re-analysis of the deposited data

Results flagged for a closer look

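For 4 of the 41 lysosomal genes a difference was called when the 2 knockouts were compared directly (limma, adjusted over all genes). The log2 fold change of gp91phox-/- against p47phox-/- was 0.65 for Ctsc, -0.75 for Smpd1, 0.47 for Gm2a and -0.46 for Cd68. For Ctsc the gp91phox-/- libraries were above the 6 others, for Gm2a and Cd68 it was the p47phox-/- libraries that lay apart, and for Smpd1 the knockouts lay on opposite sides of the WT mean. The share called, 9.76%, was near the 9.93% of all genes. In the same order of genes, the calls were lost in 8, 4, 12 and 16 of 23 alternatives. Without p47phox-/- replicates 2 and 3 together the log2 fold changes were 0.54 for Ctsc, -0.51 for Smpd1, 0.53 for Gm2a and -0.38 for Cd68.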

How the results depend on the processing

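In the 23 alternatives no called gene reversed its direction. For the 41 genes, the count called in p47phox-/- against WT (0) was 1 with quantile normalization and with DESeq2. In gp91phox-/- against WT (1) it was 0 without a filter, without a trend and with the replicate block, 10 with array weights, 7 with DESeq2, and 0 to 3 with a library left out. Between the knockouts (4) it was 1 without a filter or a trend, 2 in only the groups compared and with the replicate block, 9 with DESeq2, 0 to 5 with a library left out, and 0 without p47phox-/- replicates 2 and 3 together. For the 122 further genes, p47phox-/- against WT (2) gave 1 with a pseudocount of 0.5, without a filter, with TMM or median-of-ratios scaling, in only the groups compared, with the replicate block, with array weights and with edgeR, 0 without a trend or without p47phox-/- replicates 2 and 3 together, 10 with DESeq2, and 0 to 3 with a library left out. In gp91phox-/- against WT (8) it was 5 without a trend, 24 with array weights, 15 with DESeq2 and 5 to 12 with a library left out, and between the knockouts (13) 6 without a trend, 21 with DESeq2, 5 to 16 with a library left out and 2 without p47phox-/- replicates 2 and 3 together. Quantile normalization also gave 1 of the 41 in gp91phox-/- against WT, but this was Laptm5, lower, and not Ctsc. Over all 14404 genes, array weights called 2319 in gp91phox-/- against WT. DESeq2 called 678 in p47phox-/- against WT, 1754 in gp91phox-/- against WT and 2276 between the knockouts. With a library left out, the calls over all genes were 47 to 235, 520 to 1543 and 761 to 1661 in the same order of comparisons. Without a trend they were 52, 596 and 898. The cause of these differences between settings was not tested. Libraries with the same replicate number did not deviate together over all genes (correlations of -0.04 to 0.076). Such correlations cannot tell whether same-numbered libraries were prepared together. Over all genes the replicate block called 127, 877 and 1238 against 162, 1016 and 1430. With 3 libraries per genotype, standard errors of 0.12 to 0.30 limited what could be detected. Whether depth limited the calls was not tested; Atp6v0d2 had the lowest values, at 124 to 252 normalized counts.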

Other observations

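Cystatin C (Cst3), cystatin B (Cstb) and cathepsin F (Ctsf) were higher in p47phox-/- than in WT by value, and of the 8 further cathepsins and cystatins tested 6 were above 0 and 2, Cst7 and Ctse, below it (log2 fold changes -2.78 and -0.41, neither called). Ctsf was at 1285 ± 297 in WT, 2194 ± 468 in p47phox-/- and 1552 ± 245 in gp91phox-/- (SD, n = 3), and Cstb at 3859 ± 204, 5481 ± 1109 and 4853 ± 705. Against WT the log2 fold changes in p47phox-/- were 0.78 for Ctsf and 0.49 for Cstb, and neither was called by limma (adjusted p = 0.101 and 0.164). These genes were chosen for their values.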
